A study of Mus musculus with 4 samples.

Results

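Chromatin accessibility was examined at 8 genes that write, copy or remove DNA methylation in old and young mesenchymal stem cells (MSCs), the stromal progenitors of bone, fat and cartilage. The genes were Dnmt1, Uhrf1, Dnmt3a, Dnmt3b, Tet1, Tet2, Tet3 and Tdg. A peak was counted as a member where it overlapped one of these genes, or the 5 kb upstream of its start, in the GENCODE vM21 annotation of GRCm38. This gave 38 of the 117282 peaks of the series: 10 at Dnmt3a, 7 each at Tet1 and Tet3, 5 at Tet2, 3 each at Dnmt1 and Dnmt3b, 2 at Tdg and 1 at Uhrf1. The choice used position only and none of the measured values.

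The series held 4 libraries of ATAC-seq, an assay in which a transposase inserts sequencing adapters into open chromatin. Of these, 2 came from mice of 18 to 22 months (old replicates 1 and 2) and 2 from mice of 3 to 5 months (young replicates 1 and 2). All 4 were bone MSCs grown at 2% O2. The labels give neither strain nor sex nor genotype, and do not say whether the 2 samples of an age came from separate animals. The study's methods describe C57BL/6N males, and cells sorted as CD45-/Ter-119-/Sca-1+/CD140a+, for its young MSCs only. The p-values below therefore rest on the spread between these samples, at each peak and pooled over peaks or genes. That spread can be partly technical.

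Read as counts per 10000000 library counts, a scale that was assumed, the deposited values corresponded to library totals of 28259470 to 32559794 counts. On that scale the peaks held 43.8% and 50.3% of the library total in old and 57.5% and 62.9% in young samples. The source of this gap was not tested. The deposited values were divided here by 1 factor per library (relative log expression, RLE) and are then called scaled values. The factors ran from 0.813 in old replicate 1 to 1.15 in young replicate 2. Before that step the median log2 difference, old minus young, over all peaks was -0.27, so a direction below is relative to the typical peak. All 10 MSC marker genes, among them Ly6a, Pdgfra and Prrx1, had a peak at their start. Of 7 blood genes, 3 had a peak, and Ptprc, Spi1 and Adgre1 were among those with none. Of 4 endothelial genes, Pecam1 and Cdh5 had none. The 2 endothelial genes with a peak had opposite orders of the ages. The scaled value per kb at Kdr was 20.7 and 19.3 in old and 15.9 and 16.4 in young samples, and at Tek 16.9 and 17.5 in old and 31.3 and 26.9 in young samples. The part of such differences in the results below was not tested. In a bulk assay, a site open in fewer cells and a site less open in each cell cannot be told apart.

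DNA methylation is set on cytosines of CpG dinucleotides. Dnmt3a and Dnmt3b place new marks, whereas Dnmt1 copies existing marks to the new strand after replication, at sites to which Uhrf1 brings it. The Tet enzymes oxidise 5-methylcytosine, and the glycosylase Tdg excises the higher oxidation products, so that repair restores an unmethylated base. Most promoters of widely expressed genes lie in CpG islands that stay unmethylated.

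The starts of the 8 genes were first set beside their sequence. A peak covered the start of the principal transcript in 7 genes. The exception was Tet1, whose principal transcript Tet1-206 begins at chr10:62899118, with the nearest peak 11418 bp away. Across all protein-coding genes with a principal start, 64.0% had a peak there. At Dnmt1, the starts of 3 of 4 full coding transcripts lay in a peak, and that of Dnmt1-202, the most upstream, did not.

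The sequences below run from 200 bases before a start to its 10th transcribed base, in the direction of transcription, with each CpG in capitals. They show the CpG content of covered starts beside that of uncovered ones. They were read from GRCm38 at RefSeq starts, and for Tet1 at the start of Tet1-206.
Dnmt1, covered, chr9:20952970-20953179, minus strand: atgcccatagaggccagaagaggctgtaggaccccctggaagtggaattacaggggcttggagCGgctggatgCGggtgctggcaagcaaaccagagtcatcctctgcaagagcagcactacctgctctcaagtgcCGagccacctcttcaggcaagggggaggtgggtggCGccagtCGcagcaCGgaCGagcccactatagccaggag
Dnmt1, upstream start without a peak, chr9:20959879-20960088, minus strand: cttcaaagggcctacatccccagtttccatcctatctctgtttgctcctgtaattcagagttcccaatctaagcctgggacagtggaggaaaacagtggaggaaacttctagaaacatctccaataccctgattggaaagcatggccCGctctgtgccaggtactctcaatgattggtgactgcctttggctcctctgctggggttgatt
Uhrf1, covered, chr17:56304113-56304322, plus strand: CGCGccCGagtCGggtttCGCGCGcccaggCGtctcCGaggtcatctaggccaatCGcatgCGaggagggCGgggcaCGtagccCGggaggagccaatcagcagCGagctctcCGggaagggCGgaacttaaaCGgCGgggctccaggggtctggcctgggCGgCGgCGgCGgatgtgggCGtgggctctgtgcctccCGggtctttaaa
Dnmt3a, covered, chr12:3806780-3806989, plus strand: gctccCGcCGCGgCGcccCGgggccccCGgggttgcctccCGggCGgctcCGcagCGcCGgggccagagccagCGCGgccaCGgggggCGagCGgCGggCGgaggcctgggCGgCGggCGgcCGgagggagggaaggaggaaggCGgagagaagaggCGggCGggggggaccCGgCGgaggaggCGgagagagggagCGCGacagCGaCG
Dnmt3a, internal start, covered, chr12:3891544-3891753, plus strand: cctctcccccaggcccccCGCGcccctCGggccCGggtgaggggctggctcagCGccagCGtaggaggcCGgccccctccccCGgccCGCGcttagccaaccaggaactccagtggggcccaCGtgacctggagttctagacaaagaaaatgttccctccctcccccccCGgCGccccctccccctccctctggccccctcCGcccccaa
Dnmt3b, covered, chr2:153649249-153649458, plus strand: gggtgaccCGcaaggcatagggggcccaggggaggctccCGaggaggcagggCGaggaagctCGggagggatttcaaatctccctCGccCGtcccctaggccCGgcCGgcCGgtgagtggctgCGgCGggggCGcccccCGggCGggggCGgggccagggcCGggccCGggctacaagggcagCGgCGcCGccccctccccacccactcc
Tet1, principal start without a peak, chr10:62899109-62899318, minus strand: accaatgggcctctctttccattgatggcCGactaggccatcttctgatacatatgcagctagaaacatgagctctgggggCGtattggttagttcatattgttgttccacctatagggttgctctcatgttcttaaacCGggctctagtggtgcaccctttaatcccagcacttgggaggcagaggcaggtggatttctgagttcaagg
Tet2, covered, chr3:133544381-133544590, minus strand: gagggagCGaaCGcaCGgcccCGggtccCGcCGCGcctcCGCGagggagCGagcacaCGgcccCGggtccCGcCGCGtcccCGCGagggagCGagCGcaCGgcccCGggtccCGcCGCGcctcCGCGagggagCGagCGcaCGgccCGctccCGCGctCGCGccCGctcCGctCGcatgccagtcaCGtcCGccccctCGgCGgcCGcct
Tet3, internal start, covered, chr6:83441669-83441878, minus strand: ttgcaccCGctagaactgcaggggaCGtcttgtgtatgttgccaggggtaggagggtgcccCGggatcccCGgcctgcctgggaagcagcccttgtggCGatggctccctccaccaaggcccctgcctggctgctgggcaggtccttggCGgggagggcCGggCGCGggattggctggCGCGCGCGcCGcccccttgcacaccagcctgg
Tdg, covered, chr10:82629638-82629847, plus strand: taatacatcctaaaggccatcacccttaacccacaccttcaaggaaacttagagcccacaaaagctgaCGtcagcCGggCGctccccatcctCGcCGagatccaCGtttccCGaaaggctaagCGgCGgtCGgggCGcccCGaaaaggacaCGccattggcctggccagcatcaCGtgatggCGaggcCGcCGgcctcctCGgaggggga

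Among the printed starts, the uncovered ones held the fewest CpGs. The start of the full coding transcript Tet1-201, at chr10:62880014, also had no peak, and its CpGs were not counted. The upstream Dnmt1 window had 1 CpG and the Tet1 window 3, whereas the covered windows printed above had from 7 at Dnmt1 to 42 at Tet2. The Tet2 stretch reached 82.9% G and C. In the 300-base promoter window that RefSeq uses, Tet2 held 57 CpGs, more than 99.8% of all 32851 promoters.

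Over the genome, the share of RefSeq starts inside a peak rose with CpG number. It was 12.3% of 7656 starts with 0 to 2 CpGs in that window, 27.2% of 6654 starts with 3 to 5, and 86.5% of 4305 starts with 12 to 19. Among 3837 starts with 30 or more, it was 97.7%. The upstream Dnmt1 start, with 2 CpGs, and the Tet1 start, with 5, fell in the classes that are mostly uncovered, and every other RefSeq start of the members in a class that is mostly covered.

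**Figure D1:**
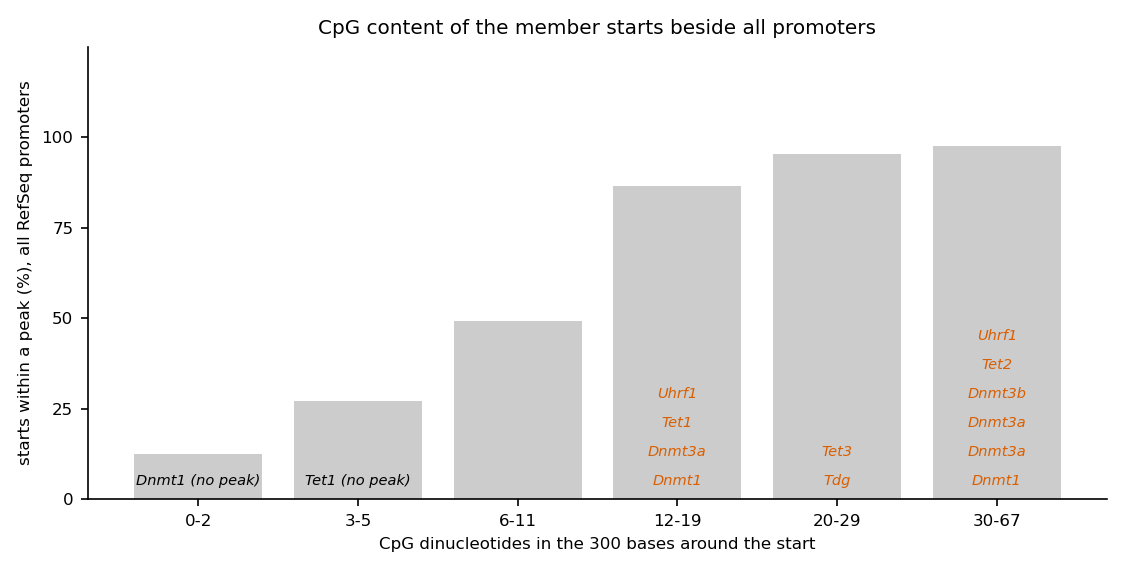
Grey bars give the percentage of all RefSeq promoter starts inside a peak, by the number of CpG dinucleotides in the 300 bases around the start. Names mark the class of each RefSeq start of the member genes and of the Tet1-206 start. The named starts without a peak, at Dnmt1 and Tet1, sit in the classes of 0 to 2 and 3 to 5 CpGs. All named starts with a peak have 12 or more.

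Short factor motifs in these promoters were counted on both strands. The SP/KLF letters GGGCGG were found in 10 of 13 RefSeq promoters of the members, in 7 of 8 genes, against 35.7% of all promoters. An E2F match (TTTCGCGC, TTTGGCGC, TTTCCCGC or TTTGCCGC), bound by factors of S-phase entry, was found at Dnmt1 and Uhrf1, the maintenance pair, against 2.26% of all promoters. It lay in the promoters of other RefSeq starts of these genes, chr9:20952623 and chr17:56304313. The RefSeq promoters at or next to their principal starts had none. The CRE letters TGACGTCA were found once, at Tdg, against 1.79%. The NRF1 letters GCATGCGC were found at Dnmt1 alone among the members, against 2.71%. All these letters hold a CpG, and the median of all promoters was 7 CpGs in 300 bases. Every RefSeq promoter of the members except the upstream Dnmt1 one held 12 or more. Promoters of equal CpG content were not compared. A match is a stretch of letters and does not show binding. The matches are in capitals here, with their neighbouring bases, on the coding strand.
Dnmt1 E2F, chr9:20952825-20952852: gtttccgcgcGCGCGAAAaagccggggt
Uhrf1 E2F, chr17:56304118-56304145: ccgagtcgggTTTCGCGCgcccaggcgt
Dnmt1 NRF1, chr9:20952590-20952617: gccagggcgcGCATGCGCggggcagcgt
Tdg CRE, chr10:82629693-82629720: ccacaaaagcTGACGTCAgccgggcgct

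Of the 38 member peaks, 9 covered the start of a full coding transcript and 2 the start of another transcript, both at Tet1. A further 25 were intronic, 1 was exonic and 1 was upstream. The share of a gene's summed scaled value that lay over starts of full coding transcripts ranged widely: it was 100% at Uhrf1, 98.3% at Tdg, 87.5% at Tet2, 71.0% at Dnmt3b, 57.3% at Tet3, 51.3% at Dnmt1 and 36.9% at Dnmt3a. At Tet1 it was 0%, although its peak chr10:62885801-62887700 covered a RefSeq start. The annotated transcripts that begin in that peak carry no full coding sequence. Tdg and Uhrf1 were thus open almost only at the start, and Dnmt3a and Tet1 mostly away from full coding starts.

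**Figure D2:**
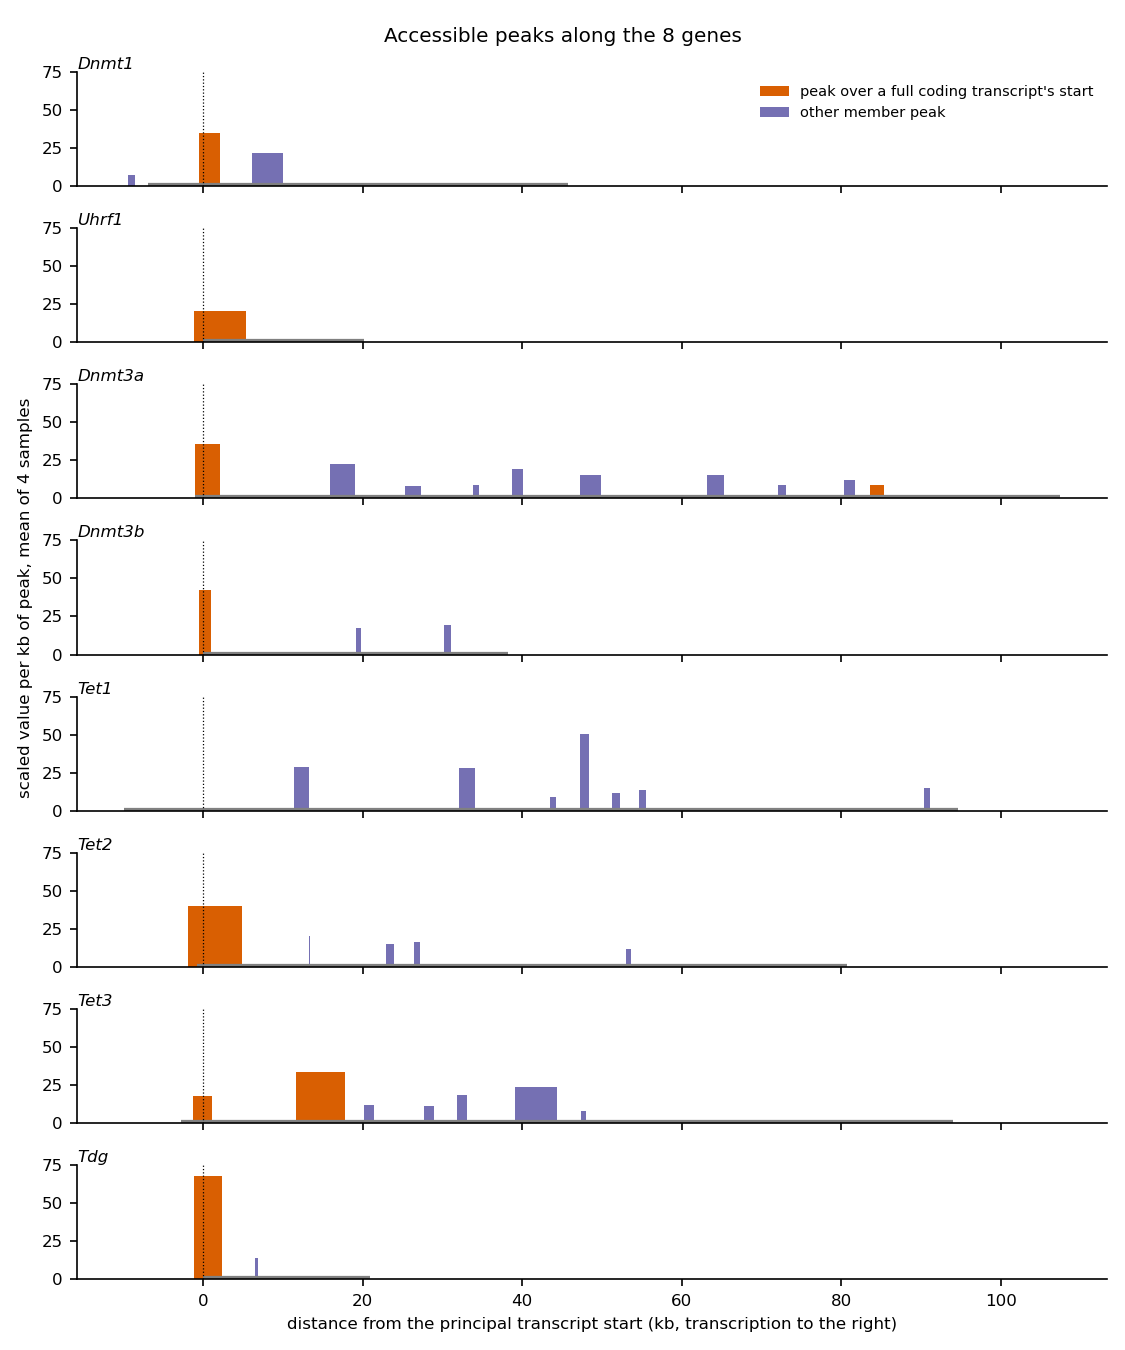
Each row is 1 gene, with the distance from the principal transcript start in kb on the horizontal axis and the scaled value per kb of peak, as the mean of 4 samples, on the vertical axis. Bars have the width of the peaks, orange where a full coding transcript starts and violet elsewhere, and the grey line is the annotated gene. Tet1 has no peak at its principal start and its tallest bar lies 47.8 kb downstream.

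Levels were compared between genes per kb of peak, since a wider peak collects more counts. Among the 7 principal start peaks, that of Tdg was the most accessible, with scaled values per kb of 62.9 to 75.6 over the 4 samples, above those of the other principal starts and above 92.6% of all start-site peaks on average. Dnmt3b (35.0 to 46.7), Tet2 (34.7 to 44.3), Dnmt3a (32.7 to 37.4) and Dnmt1 (30.6 to 37.9) followed with ranges that overlapped. Uhrf1 (17.4 to 22.2) and Tet3 (15.8 to 19.6) were the lowest of the principal starts and overlapped each other. The median start-site peak had 30.03 and the median of all peaks 13.3 on this scale.

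Old and young samples were then compared at each peak with limma, a linear model with moderated variances, on log2(scaled value + 1). A difference is old minus young, an error is the standard error of the fit with n = 2 per age, and adjusted p-values (Benjamini-Hochberg) cover all 117282 peaks. No member peak passed the adjusted threshold of 0.01 in either direction. In the whole table, 0.0307% of peaks passed as lower in old MSCs and 0.0256% as higher. The smallest adjusted p of a member was 0.123. At an unadjusted p under 0.05, 0 members were lower and 4 higher in old MSCs, against 8.87% and 7.49% of all peaks. This count depended on the RLE step. On the values as deposited, where 74.6% of all peaks were below 0, 2 members had such a p. Both were start peaks lower in old MSCs. Both old samples lay below both young samples at 5 member peaks and above them at 6, against 24.2% and 23.2% of all peaks.

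The median difference over the member peaks was -0.01, beside 0.00 over all peaks, and 19 peaks had a lower and 19 a higher value in old MSCs. The peaks of each age group did not vary in parallel: old replicate 2 exceeded old replicate 1 at 27 of 38 member peaks, with a median log2 difference of 0.21, against 49.0% of all peaks. Between the young replicates, replicate 2 was the higher at 16. Pair by pair, the median difference between ages was -0.09 for old replicate 1 against either young sample. For old replicate 2 it was 0.18 against young replicate 1 and 0.11 against young replicate 2. Each was smaller in size than the gap of 0.21 between the old samples, and the sign depended on the old replicate.

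**Figure D3:**
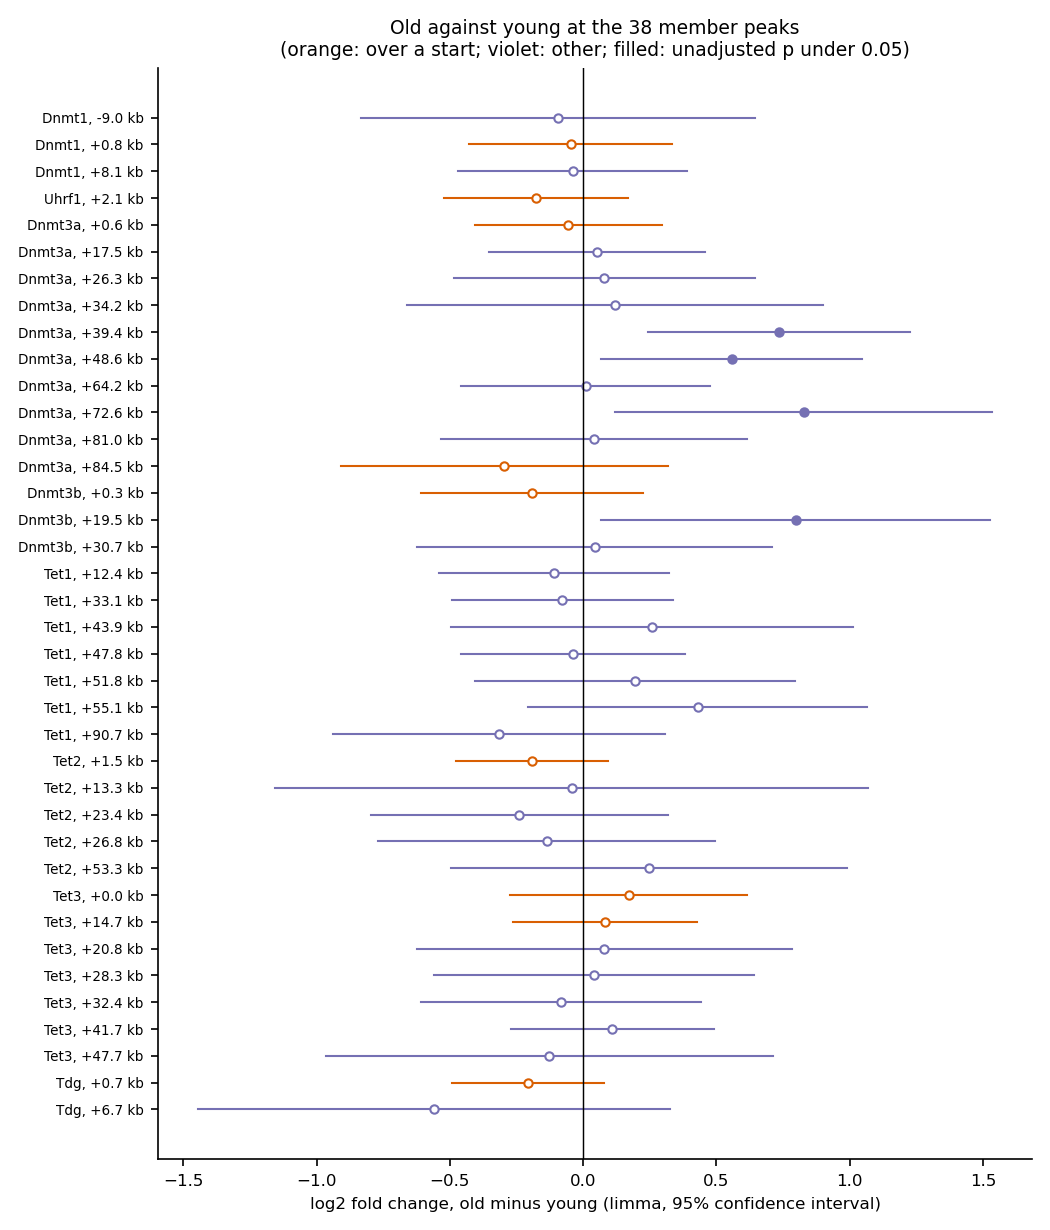
Points are log2 differences, old minus young, of the 38 member peaks from limma, and lines their 95% confidence intervals. Peaks are ordered along each gene by the distance of their centre from the principal start, with orange for peaks over a full coding transcript's start, violet for others and filled points for an unadjusted p under 0.05. The 4 filled points, 3 at Dnmt3a and 1 at Dnmt3b, all lie in introns and above 0.

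The maintenance genes came first. At Dnmt1 (chr9:20907209-20959888, minus strand), which encodes the maintenance methyltransferase, the start peak chr9:20950801-20953500 had scaled values of 82.6 and 102 in old and 102 and 89.0 in young samples. The age groups overlapped, and the difference was -0.05 ± 0.18 (adjusted p = 0.928). An intronic peak, chr9:20943001-20946800, in the 1st intron of Dnmt1-201, was nearly as strong, with 65.0 and 99.1 in old and 85.9 and 79.2 in young samples, and a difference of -0.04 ± 0.20 (adjusted p = 0.948). The upstream peak, which also overlaps S1pr2, stayed at 5.59 to 8.31. Old and young values overlapped at all 3 Dnmt1 peaks.

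Uhrf1 (chr17:56303321-56323486, plus strand), whose product reads hemimethylated CpGs, had a single peak, chr17:56302201-56308700. This 6500-bp peak held the starts of all 4 full coding transcripts. Scaled values were 141 and 113 in old and 141 and 145 in young samples. The old values were both the lower, but old replicate 1 equalled young replicate 1 to 3 digits, and the difference of -0.18 ± 0.16 did not pass (adjusted p = 0.637). Its 95% confidence interval ran from -0.52 to 0.17. Without old replicate 2 the difference was -0.0084, and without old replicate 1 it was -0.34.

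Dnmt3a (chr12:3806007-3914443, plus strand), a de novo methyltransferase, had the most peaks. Its start peak, chr12:3806001-3809200, had scaled values of 105 and 118 in old and 120 and 112 in young samples, with a difference of -0.06 ± 0.17 (adjusted p = 0.906). It was the most GC-rich of the members at 71.8% and contained 304 CpGs. The GC content exceeded that of 99.8% of start-site peaks. The groups overlapped here.

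A second, internal start of Dnmt3a, in the 6th intron of the long transcript, gives a shorter coding sequence (2067 against 2724 bases) and is known as the start of the Dnmt3a2 form. Its peak, chr12:3890601-3892400, was singled out after its values were seen. It had 13.8 and 14.9 in old and 23.2 and 13.7 in young samples. Only young replicate 1 stood apart, and the difference was -0.30 ± 0.29 (adjusted p = 0.660). Per kb it reached 9.11, above only 4.70% of start-site peaks, with 14 CpGs in the window printed above.

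Between those starts lay 8 intronic Dnmt3a peaks, and in all 8 the fitted difference was above 0, as in 52.2% of all intronic peaks. On the deposited values, without the RLE step, 5 of the 8 were below 0. After the RLE step the median difference of the 8 was 0.10, and 3 of them made up most of the members with an unadjusted p under 0.05.

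The Dnmt3a peak with the smallest p, chr12:3845701-3847100, lies in the 2nd intron, 39.4 kb from the principal start. Its scaled values were 34.9 and 33.2 in old and 20.6 and 19.6 in young samples, so that the replicates of an age were close and the ages well apart. The difference was 0.73 ± 0.23 (95% confidence interval 0.24 to 1.23, adjusted p = 0.123). The next, chr12:3854301-3856900 in the 3rd intron, had 39.2 and 57.6 in old and 34.8 and 29.4 in young samples, with a wide gap between the old samples and a difference of 0.56 ± 0.23 (adjusted p = 0.244). A weaker peak in the 6th intron, chr12:3879101-3880100, had 12.05 and 11.3 in old and 4.64 and 8.01 in young samples, with a difference of 0.83 ± 0.34 (adjusted p = 0.228). At these 3 peaks both old samples exceeded both young ones, and none passed after adjustment. Without old replicate 1, with old MSCs then a lone sample assumed to vary like the young ones, the peak in the 3rd intron passed at 0.83, in a fit that called 10356 peaks in all. Without old replicate 2 its difference was 0.29 (adjusted p = 0.531). The peak in the 6th intron ranged from 0.49 without young replicate 1 to 1.16 without young replicate 2, and that in the 2nd intron from 0.70 to 0.78 over the 4 samples left out in turn.

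The other 5 intronic Dnmt3a peaks had overlapping groups, with differences of 0.01 to 0.12. The flattest of them, chr12:3870201-3872300, had 32.3 and 32.3 in old and 31.8 and 32.4 in young samples.

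**Figure D4:**
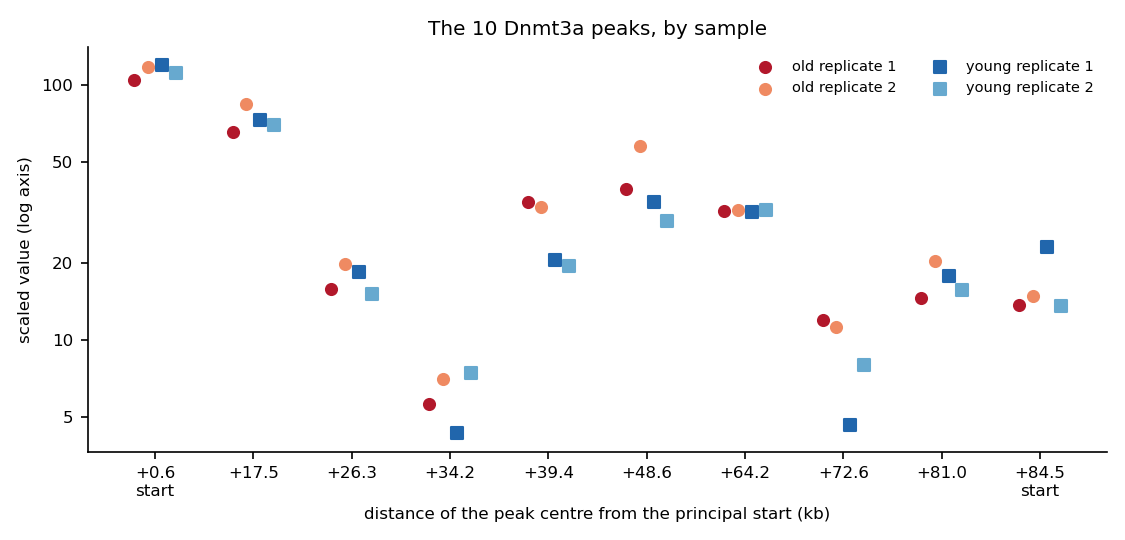
Scaled values of the 10 Dnmt3a peaks in each sample, on a log axis, are placed in order of the distance of the peak centre from the principal start in kb. Circles are old and squares young samples. At 39.4, 48.6 and 72.6 kb both circles lie above both squares, while at the start peak (0.6 kb) and at 64.2 kb the samples lie together.

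The 3 intronic Dnmt3a peaks differed in CpG content. The peak in the 2nd intron held 7 CpGs in 1400 bp, a ratio of observed to expected CpG of 0.086, which was above that of 8.83% of all peaks. The ratio was 0.12 in the 3rd intron, above 17.4% of all peaks, and 0.19 in the 6th, above 41.5%. The central 200 bases of this peak, chr12:3846301-3846500 on the plus strand, are shown because it gave the smallest p of the members. They hold 1 CpG, in capitals.
Dnmt3a 2nd intron: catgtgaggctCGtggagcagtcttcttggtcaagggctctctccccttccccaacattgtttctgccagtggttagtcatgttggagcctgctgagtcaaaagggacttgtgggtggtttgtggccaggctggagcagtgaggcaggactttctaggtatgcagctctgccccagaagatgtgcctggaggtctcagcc

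This stretch contains an AP-1 match (TGANTCA, both strands, capitals below). In the central 300 bases, 5 of the 29 member peaks away from full coding starts had one, against 23.6% of all peaks away from start sites.
Dnmt3a AP-1, chr12:3846384-3846410: tggagcctgcTGAGTCAaaagggactt

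Dnmt3b (chr2:153649450-153687730, plus strand), the other de novo methyltransferase and mainly a gene of early development, was open at its start. The peak chr2:153649001-153650500, shared with the antisense gene Dnmt3bos, had scaled values of 66.7 and 52.5 in old and 70.0 and 65.6 in young samples. The groups overlapped and the difference was -0.19 ± 0.20 (adjusted p = 0.675). ATAC-seq carries no strand, and the peak cannot be divided between both genes. In the 7th intron, the peak chr2:153668601-153669200 had 10.8 and 15.6 in old and 4.98 and 9.79 in young samples. Both old values were the higher, the replicates differed widely, and the difference of 0.80 ± 0.35 did not pass (adjusted p = 0.261). It was 0.37 without young replicate 1 and 1.21 without young replicate 2. The last peak, in the 20th intron, spanned 10.3 to 21.7 in young samples alone and held the old values within that range.

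Among the Tet genes, which encode the 5-methylcytosine dioxygenases, Tet1 (chr10:62804570-62908996, minus strand) was open only inside the annotated gene. Its most accessible peak per kb, chr10:62850701-62851900, lies in the 3rd intron of Tet1-206. It had scaled values of 54.6 and 65.0 in old and 56.1 and 66.8 in young samples. The replicates differed more than the ages, and the difference was -0.04 ± 0.20 (adjusted p = 0.948). At 50.5 per kb this intronic peak exceeded 81.2% of start-site peaks, with 11 CpGs in 1200 bp. Its centre, chr10:62851201-62851400 on the plus strand, is shown beside the uncovered start above, with its 3 CpGs in capitals.
Tet1 3rd intron: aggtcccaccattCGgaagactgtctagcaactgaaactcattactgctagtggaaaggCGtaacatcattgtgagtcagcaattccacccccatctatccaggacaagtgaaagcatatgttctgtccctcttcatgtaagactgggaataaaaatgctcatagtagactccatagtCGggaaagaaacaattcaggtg

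The Tet1 peak at the RefSeq start, chr10:62885801-62887700, was singled out after its values were seen. It covers the starts of Tet1-207 and Tet1-210, which carry no full coding sequence in the annotation. It had 45.6 and 58.6 in old and 57.1 and 54.6 in young samples, and a difference of -0.11 ± 0.21 (adjusted p = 0.839). Old replicate 1 was the low sample here, and the groups overlapped. With 105 CpGs this peak was the CpG-rich one of the gene. The other 5 Tet1 peaks had differences from -0.32 to 0.43, none with an adjusted p under 0.511.

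**Figure D5:**
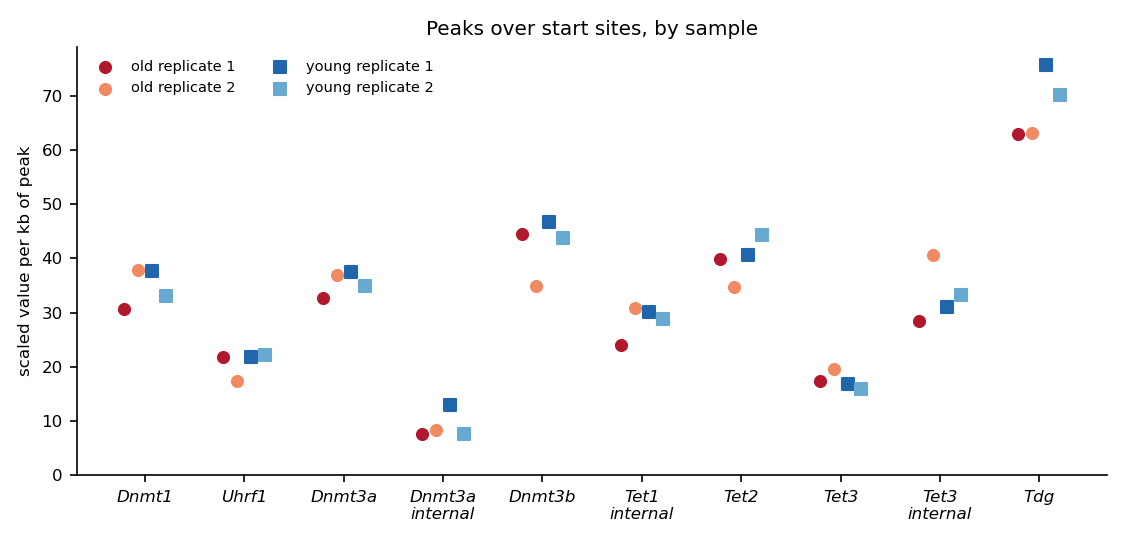
Scaled values per kb of peak are shown for each sample at the peaks over start sites, with circles for old and squares for young samples. Internal marks a second start of Dnmt3a and Tet3, and the RefSeq start of Tet1. The Tdg values (62.9 to 75.6) lie above all others, and its young samples lie above its old ones.

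Tet2 (chr3:133463679-133545139, minus strand) had a start peak of 6800 bp, chr3:133539501-133546300, which also overlaps the gene model Gm42567. Scaled values were 271 and 236 in old and 276 and 301 in young samples. Both old values were the lower, with a difference of -0.19 ± 0.14 (95% confidence interval -0.48 to 0.10, adjusted p = 0.517). The 4 intronic peaks were weak, with the strongest sample at 19.6. One of them was 100 bp wide and rested on 3 to 10 counts per library, the lowest depth of any member.

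Tet3 (chr6:83362373-83459084, minus strand) had peaks over 2 coding starts. The principal start, of the transcript with the longer coding sequence (5409 bases), had scaled values of 41.7 and 47.0 in old and 40.5 and 37.99 in young samples at chr6:83455201-83457600. Both old values were the higher, by 0.17 ± 0.21 (adjusted p = 0.738), while the difference was -0.11 on the values as deposited. The internal start, with a coding sequence of 5004 bases, lay in a peak of 6100 bp, chr6:83438601-83444700, which also overlaps B230319C09Rik. It had 173 and 247 in old and 189 and 202 in young samples, a difference of 0.08 ± 0.17 (adjusted p = 0.852; -0.21 as deposited), and the old samples enclosed the young. Per kb the internal start reached 33.3 and the principal start 17.4, and in each of the 4 samples the internal one was the higher. An intronic Tet3 peak of 5300 bp, chr6:83412001-83417300, ranged from 108 to 150 with overlapping groups.

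Tdg (chr10:82629828-82650799, plus strand), the glycosylase that completes the Tet route, had the densest start peak of the members, chr10:82628801-82632300. Scaled values were 220 and 221 in old and 265 and 246 in young samples. The old samples were nearly equal and both below the young ones, and the difference of -0.21 ± 0.14 did not pass (95% confidence interval -0.49 to 0.08, adjusted p = 0.474). Its other peak, 300 bp wide, in the 1st intron, had values of 2.44 to 6.83.

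Of the 7 principal start peaks, 6 had a difference below 0, with a median of -0.18. Start-site peaks of all genes were below 0 in 56.4%, with a median of -0.03. The 29 member peaks away from full coding starts had a median of 0.04, and 17 of them were above 0. Before the RLE step all 7 principal starts, the Tet3 one included, were lower in old MSCs, as were 89.6% of all start-site peaks.

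Summing the deposited peak values of each gene gave 1 value per gene, which was fitted over 17308 protein-coding genes with a peak. The sums had RLE factors of their own, from 0.786 in old replicate 1 to 1.14 in young replicate 2. They are therefore not sums of the scaled peak values above. The 1 peak of Uhrf1 thus became 146 and 111 in old and 139 and 146 in young samples. Of all genes, 0.0116% passed an adjusted p of 0.01, and none of the 8 members did. At an unadjusted p under 0.05 there were 0 members, against 8.83% of all genes. Dnmt3a had summed scaled values of 349 and 390 in old and 343 and 325 in young samples, the old ones being the higher, and a difference of 0.14 ± 0.13 (95% confidence interval -0.14 to 0.42, adjusted p = 0.748). Tdg had 232 and 218 in old and 264 and 254 in young samples, the old ones being the lower, and a difference of -0.20 ± 0.13 (adjusted p = 0.656). For the other 6 genes the groups overlapped, with differences from -0.17 at Tet2 to 0.10 at Tet3. As deposited, the sums of Dnmt3a and Tet3 were lower in old MSCs, at -0.16 and -0.20.

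The wider pathway was covered by 40 partner genes, which recruit the enzymes, read methylated DNA, repair excised bases or supply cofactors. They had 116 peaks, of which 0 passed the adjusted threshold, 8 were lower and 6 higher at an unadjusted p under 0.05 (8.87% and 7.49% of all peaks), and the median difference was -0.03. Of 41 partner peaks over coding starts, 30 had a difference below 0, against 56.4% of all start-site peaks. As deposited it was 39 of 41, against 89.6%.

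An internal coding start of Dnmt3l, the catalytically inactive cofactor of Dnmt3a and Dnmt3b, had the lowest p among partner starts. Its peak, centred 12953 bp into the annotated gene, had scaled values of 79.6 and 73.5 in old and 114 and 104 in young samples. Both old values were the lower, with a difference of -0.50 ± 0.18 (adjusted p = 0.155). Upward, the lowest p-values were those of the CXXC-domain gene Cxxc5 (0.23 ± 0.13, adjusted p = 0.407), Parp1 of base excision repair (0.28 ± 0.19, adjusted p = 0.492) and Gadd45b, a stress-induced gene tied to demethylation (0.17 ± 0.12, adjusted p = 0.522). As deposited, these 3 were below 0.

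The smallest adjusted p in the pathway, 0.0231, belonged to an exonic peak of Smug1, a uracil glycosylase, at chr15:103157601-103157900. It was named after its values were seen. It had 26 and 18 counts in old and 1 and 4 in young libraries, or scaled values of 11.2 and 5.49 against 0.332 and 1.19. Both old samples were the higher, and the fitted difference was 2.38 ± 0.47, from a peak of 300 bp with few counts. It passed 0.01 on the values as deposited (2.18), with a replicate block (2.38) and without old replicate 2 (2.84).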

How the data were processed

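Values of 4 ATAC-seq libraries on mm10 were analysed. The deposited values are named RPKM by the authors but were used as a score, read as counts per 10000000 library counts with no division by peak length. In each library 99.998% or more were whole multiples of 1 step (within 0.01 counts), so a peak with 3 counts had a deposited value between 0.921 and 1.06. The authors' notes name Bowtie2, Picard and mm10. The authors' methods, written for the oxygen comparison, add chromstaR peaks and edgeR with RLE factors. Here limma 3.58.1 in R 4.3.3 (lmFit, eBayes with trend and robust) was used, on log2(value / RLE factor + 1), with adjusted p under 0.01 over all peaks, and was tested on simulated data. Python 3.11.15 did the rest. Exact permutation of 2 against 2 samples cannot go below p = 0.333 (two-sided).

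Named were each gene's principal start peak, its densest peak per kb, and members with an unadjusted p under 0.05. Among partner genes, the 3 start peaks of lowest p in each direction were named, of which some are not reported here. Members and lists were chosen with earlier results of these data known. Alternatives were the values as deposited, quantile normalization, pseudocounts of 0.1 and 5, a filter on weak features, plain eBayes, a replicate block, limma-voom on recovered counts, an adjusted p of 0.05, a 1 kb upstream window, and leaving out each sample.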

Additional observations from a re-analysis of the deposited data

How the results depend on the processing

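With 2 samples per age, 1 library decided several values. The count of member peaks past the threshold was 0 under every alternative except without old replicate 1 (0 to 1 when each sample was left out, the 1 being the Dnmt3a peak in the 3rd intron at 0.83), and the same held for the named member peaks (0 to 1). Start-site peaks and gene sums of the members stayed at 0 calls under every alternative run for them. The 1 kb window was run for the member peaks alone, not for the named, start-site or summed values. The partner peaks past the threshold numbered 2 on the values as deposited, 1 with the replicate block, 1 at an adjusted p under 0.05, 2 with the crossed replicate block (chosen after seeing the data) and 0 to 13 when each sample was left out, against 0. The Smug1 peak was called at an adjusted p of 0.05, with the block, on the values as deposited and without old replicate 2. The cause was not tested. In the whole table, calls numbered 66, against 1385 on the values as deposited, 1269 with the block, 153 with limma-voom on recovered counts, 0 with plain eBayes and 10356 without old replicate 1. The labels do not say that samples of the same number were handled together, and deviations of same-numbered samples correlated at -0.099 over peaks. The median difference of the member peaks was -0.25 on the values as deposited (all peaks -0.27), and -0.09 to 0.10 when each sample was left out.

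Of 30 single values followed, 14 kept their direction throughout. On the values as deposited, the Tet3 internal start turned to -0.21, the Tet3 principal start to -0.11, Cxxc5 to -0.055, Gadd45b to -0.12, Parp1 to -0.0077, and the sums of Tet3 to -0.20 and of Dnmt3a to -0.16. With quantile normalization the Tet1 sum turned to 0.00037. When each sample was left out, the sign changed for the start peaks of Dnmt1 (-0.19 to 0.10) and Dnmt3a (-0.13 to 0.030), the internal starts of Dnmt3a (-0.66 to 0.063), Tet1 (-0.28 to 0.065) and Tet3 (-0.17 to 0.34), and the Tet1 peak in the 3rd intron (-0.17 to 0.083). It also changed for the sums of Dnmt1 (-0.21 to 0.15), Uhrf1 (-0.37 to 0.045), Dnmt3b (-0.17 to 0.11), Tet1 (-0.078 to 0.041) and Tet3 (-0.088 to 0.29). With the sign kept, leaving out old replicate 1 or 2 gave the lowest and highest values at the starts of Dnmt3b (-0.37 to -0.013), Tet2 (-0.29 to -0.082) and Tet3 (0.097 to 0.25), and for the sums of Tet2 (-0.32 to -0.014) and Dnmt3a (0.074 to 0.22).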
